A study of Rattus norvegicus with 10 samples.

Results

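The genes described here are 68 of those that encode proteins of the cytosolic ribosome. Each had a probe set of its own on a whole-transcript rat gene array, out of 14324 named genes on it. The family was chosen with earlier results of these data known. Its members were then taken by symbol, as Rpl or Rps with a number, together with Rplp0, Rplp1, Rplp2 and Rpsa. The Rps6k kinases and pseudogene symbols were left out. Where a gene had several probe sets, the brightest on average across the 10 arrays stood for it. Of the 68, 42 encode proteins of the large subunit and 26 of the small subunit, and together they cover 68 of 79 listed ribosomal proteins. The others are not among the 68, also where a probe set carried a symbol outside the rule, as for Fau.

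RNA came from whole retinae of rats at postnatal day 3, from Sprague Dawley (SD) rats, described as susceptible to oxygen-induced retinopathy, and Fischer 344 (F344) rats, described as resistant. In the hyperoxia groups, litters were placed in an oxygen chamber in the first 12 hours of life, where 80% oxygen alternated with 21% oxygen every 24 hours. The groups were SD in hyperoxia (2 pools), SD in room air (3 pools), F344 in hyperoxia (3 pools) and F344 in room air (2 pools). Each pool mixed RNA of 3 rats from 2 litters and was hybridised to 1 array, so the spread below is between pools and not between single rats. The labels name no transgene or engineered allele in any group. Age-matched litters kept in room air were the controls.

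A ribosome joins a small subunit, which reads the mRNA, to a large subunit, which forms the peptide bond and feeds the growing chain into an exit tunnel. Its protein genes are among the most highly expressed genes of most cells and are usually regulated as a group. In mammals their transcripts start with a C followed by a run of pyrimidines, the 5′ terminal oligopyrimidine (TOP) motif, through which the TOR kinase pathway controls their translation. The developing retina, in which progenitors still divide while the first neurons and photoreceptors mature, makes large amounts of ribosomes.

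The start-site context of the genes was read from RefSeq promoter entries of the assembly GRCr8, in which 57 of the 68 genes had a match. The entries give annotated starts, of which 23 of 57 equalled the start of the gene in the RefSeq gene table, and the arrays did not measure start sites. The sequences shown run from 30 bases before the annotated start to 20 bases from it, and capitals mark the run of C and T that holds the start. The first 3 genes were among those with the lowest values in exposed SD retinas relative to SD room air, and the other 3 were among those that were not lower there. Without the SD room-air and F344 hyperoxia arrays numbered 3, Rplp0 was at -0.15 in that comparison, Rps16 at 0.00 and Rpl4 at 0.15.
Rpl39: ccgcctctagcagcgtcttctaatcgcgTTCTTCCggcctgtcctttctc
Rps27: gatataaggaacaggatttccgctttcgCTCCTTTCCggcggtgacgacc
Rps21: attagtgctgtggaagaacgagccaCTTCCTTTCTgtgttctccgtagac
Rplp0: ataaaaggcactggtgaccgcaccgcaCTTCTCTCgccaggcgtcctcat
Rpl4: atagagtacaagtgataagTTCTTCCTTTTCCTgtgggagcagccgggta
Rps16: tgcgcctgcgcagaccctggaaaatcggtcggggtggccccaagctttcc
They lie at chrX:121195877-121195926 (Rpl39, minus strand), chr2:177964587-177964636 (Rps27, minus strand), chr3:187724008-187724057 (Rps21, plus strand), chr12:46718371-46718420 (Rplp0, minus strand), chr8:73566447-73566496 (Rpl4, plus strand) and chr1:92770628-92770677 (Rps16, plus strand).

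A pyrimidine run across the start was thus present both in genes with low values in exposed SD retinas and in genes without them, while the annotated start of Rps16 lay outside any such run. A C at the annotated start followed by at least 4 C or T bases was found in 23 of the 57 genes (40.4%), against 2.63% of 27457 RefSeq promoter entries. The letters CTTTCC, which can overlap that run as they do in Rps27, occurred on the sense strand of the 50-base window in 17 of 57 genes (29.8%) and in 2.25% of all entries. Their complement GGAAAG, which marks the same letters on the other strand, occurred in 1 of 57 (1.75%) and in 2.16% of all entries. The 23 genes with the C start had a median difference between SD hyperoxia and SD room air of -0.25 on the log2 scale, and the 34 without it had -0.17. In F344 the medians were 0.20 and 0.125, and between strains in room air, SD minus F344, they were 0.37 and 0.25. The larger size with the C start was thus not particular to SD exposure. These are descriptions with no test.

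The deposited values are log2 expression values, so a difference of 1 stands for a doubling. The 68 genes lay between 6.9 and 12.7 on that scale, and every one was above the array's median of 5.9 to 6.0 on all 10 arrays. Retinal identity was checked with 16 listed genes, of which 11 were measured and all were above the array median. Neurod1 averaged 12.02, Pax6 11.57 and Crx 10.95 over the 10 arrays. Arrays numbered 3, present in SD room air and in F344 hyperoxia, stood apart from the others of their groups. A term for them was significant in 7.39% of all genes upward and 8.73% downward by limma at an adjusted p under 0.05. The design text says that 1 array was added to each of these groups after a first analysis, and that the arrays numbered 3 are the added ones is an inference from the numbering. One is a room-air pool of SD and the other a hyperoxia pool of F344, so the main values below are also given without both.

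Among the 68 ribosomal protein genes, that term called 19 higher and 3 lower in the arrays numbered 3, against 7.39% and 8.73% of all genes. The median of all 68 was 0.23 on the log2 scale. Rps27, a zinc-finger protein of the small subunit, was higher there by 0.88 (SE 0.126, adjusted p = 8.54e-04). Rps26, which lies where mRNA leaves the small subunit, was higher by 0.65 (SE 0.0938), and Rpl19, at the tunnel exit, by 0.62 (SE 0.104). The 3 genes that were lower were Rplp0 (-0.40), Rps3 (-0.35) and Rps16 (-0.30). The shift therefore ran in opposite directions within the family.

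**Figure D1:**
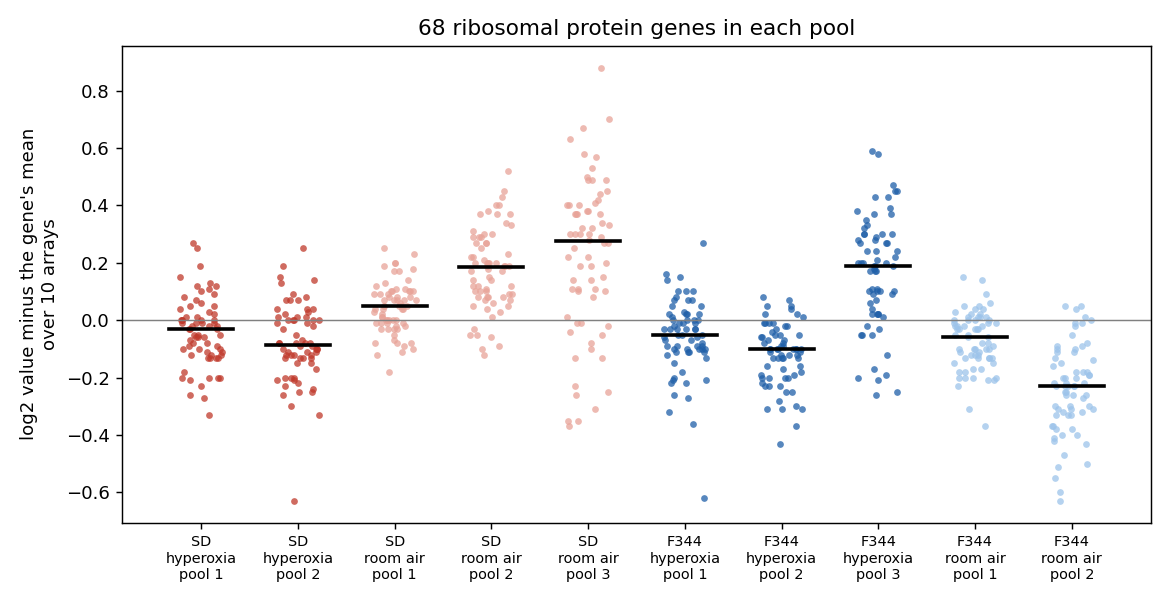
Values of the 68 ribosomal protein genes in each of the 10 pools, as log2 value minus the gene's own mean over all arrays, with black lines at the median of the 68. The median was -0.03 and -0.09 in the SD hyperoxia pools, 0.05, 0.19 and 0.28 in the SD room-air pools, -0.05, -0.10 and 0.19 in the F344 hyperoxia pools, and -0.06 and -0.23 in the F344 room-air pools.

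The mean of the 68 genes was 10.59 and 10.55 in the SD hyperoxia pools, against 10.67, 10.80 and 10.85 in the SD room-air pools. It was 10.57, 10.51 and 10.79 in the F344 hyperoxia pools, against 10.55 and 10.39 in the F344 room-air pools. The SD hyperoxia pools were both below all SD room-air pools. In F344, hyperoxia pools 1 and 3 were above both room-air pools, and hyperoxia pool 2 lay between them. Leaving ties out, SD room-air pool 3 alone held the highest value of the 10 arrays for 25 genes, and F344 room-air pool 2 alone held the lowest for 26.

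In SD retinas, cyclic hyperoxia came with slightly lower values across most of the family. The median difference between hyperoxia and room air was -0.20 on the log2 scale, against 0.00 over all 14324 genes, and 60 of 68 genes were below 0, 7 above and 1 at 0 (all genes 46% below and 49.4% above). No single gene passed: 0 of 68 had an adjusted p under 0.05 by limma in either direction, against 0.0489% of all genes lower and 0% higher, and the smallest adjusted p was 0.643. Before adjustment, at p under 0.05, 13 genes were lower and 2 higher, or 19.1% and 2.94% of the family, against 2.95% and 1.74% of all genes. The groups did not overlap for 23 genes that were lower and 2 that were higher, against 7.34% and 6.67% of all genes. In bulk RNA, fewer cells of a type and less RNA per cell cannot be told apart.

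Rpl39, a very small protein near the end of the exit tunnel, had the most negative difference. Its log2 values were 10.2 and 9.7 in SD hyperoxia, against 10.3, 10.7 and 11.0 in SD room air. Both exposed pools were below all 3 room-air pools, narrowly in the nearest pair, and the difference was -0.72 (SE 0.255, 1.64-fold lower, adjusted p = 0.815).

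Rps21, a small-subunit protein, had log2 values of 10.1 and 9.9 in SD hyperoxia, against 10.4, 10.5 and 10.6 in SD room air. The groups were separated by more than the spread within either, and its difference of -0.50 (SE 0.131) carried the smallest adjusted p of the family. Rps14, which sits by the mRNA exit and whose loss of 1 copy causes the anaemia of the human 5q- syndrome, was at 10.2 in both exposed pools, against 10.5, 10.8 and 10.8, a difference of -0.50 (SE 0.137). Rpl24, a large-subunit protein that reaches across to the small subunit, was at 8.3 in both exposed pools, against 8.7, 8.8 and 9.0, a difference of -0.53 (SE 0.166).

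Rps25, known as a factor for initiation at viral internal ribosome entry sites, differed by -0.53 (SE 0.195), with 10.1 ± 0.141 in SD hyperoxia and 10.6 ± 0.208 in SD room air on the log2 scale (SD, n = 2 and 3). Rps27 differed by -0.55, but with the larger SE of 0.298, since its value of 8.4 in room-air pool 3 was well above the 7.7 and 7.6 of the other room-air pools. The exposed pools had 7.4 and 7.3. Rps27 also had the widest range over the 10 arrays, 1.5, followed by Rpl39 with 1.3 and Rpl36 with 1.2. The narrowest was that of Rpl9, 0.2, followed by several genes at 0.3, among them Rpl6 and Rpl27a.

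A few genes went the other way. Rpl15, a large-subunit protein mutated in some families with Diamond-Blackfan anaemia in humans, was at 8.9 in both exposed SD pools, against 8.7, 8.7 and 8.3 in room air, a difference of 0.33 (SE 0.129). Rpl4, whose loop lines the exit tunnel, was at 11.4 in both, against 11.2, 11.3 and 10.9, a difference of 0.27 (SE 0.122). Those were the 2 genes with non-overlapping higher values. Rps16, a protein of the small subunit's head, differed by 0.12 (SE 0.135), Rpl8, which lies near the peptidyl transferase centre, by 0.10 (SE 0.127) and Rpsa, also called the laminin receptor, by 0.07 (SE 0.138), all with overlapping groups.

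Without both arrays numbered 3, the SD median was -0.15, with 56 genes below 0 and 3 above. At an unadjusted p under 0.05, 13 genes were then lower and 0 higher. Rpl39 stood at -0.55, Rps21 at -0.45, Rps14 at -0.45, Rpl24 at -0.45, Rps25 at -0.45 and Rps27 at -0.30. Rpl15 stood at 0.20 and Rpl4 at 0.15, and Rps16 and Rpl8 stood at 0.00. Rpsa stood at -0.05. Without the arrays numbered 3 the differences of these genes were thus smaller, and the signs held apart from Rps16 and Rpl8, which reached 0, and Rpsa, which changed side.

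**Figure D2:**
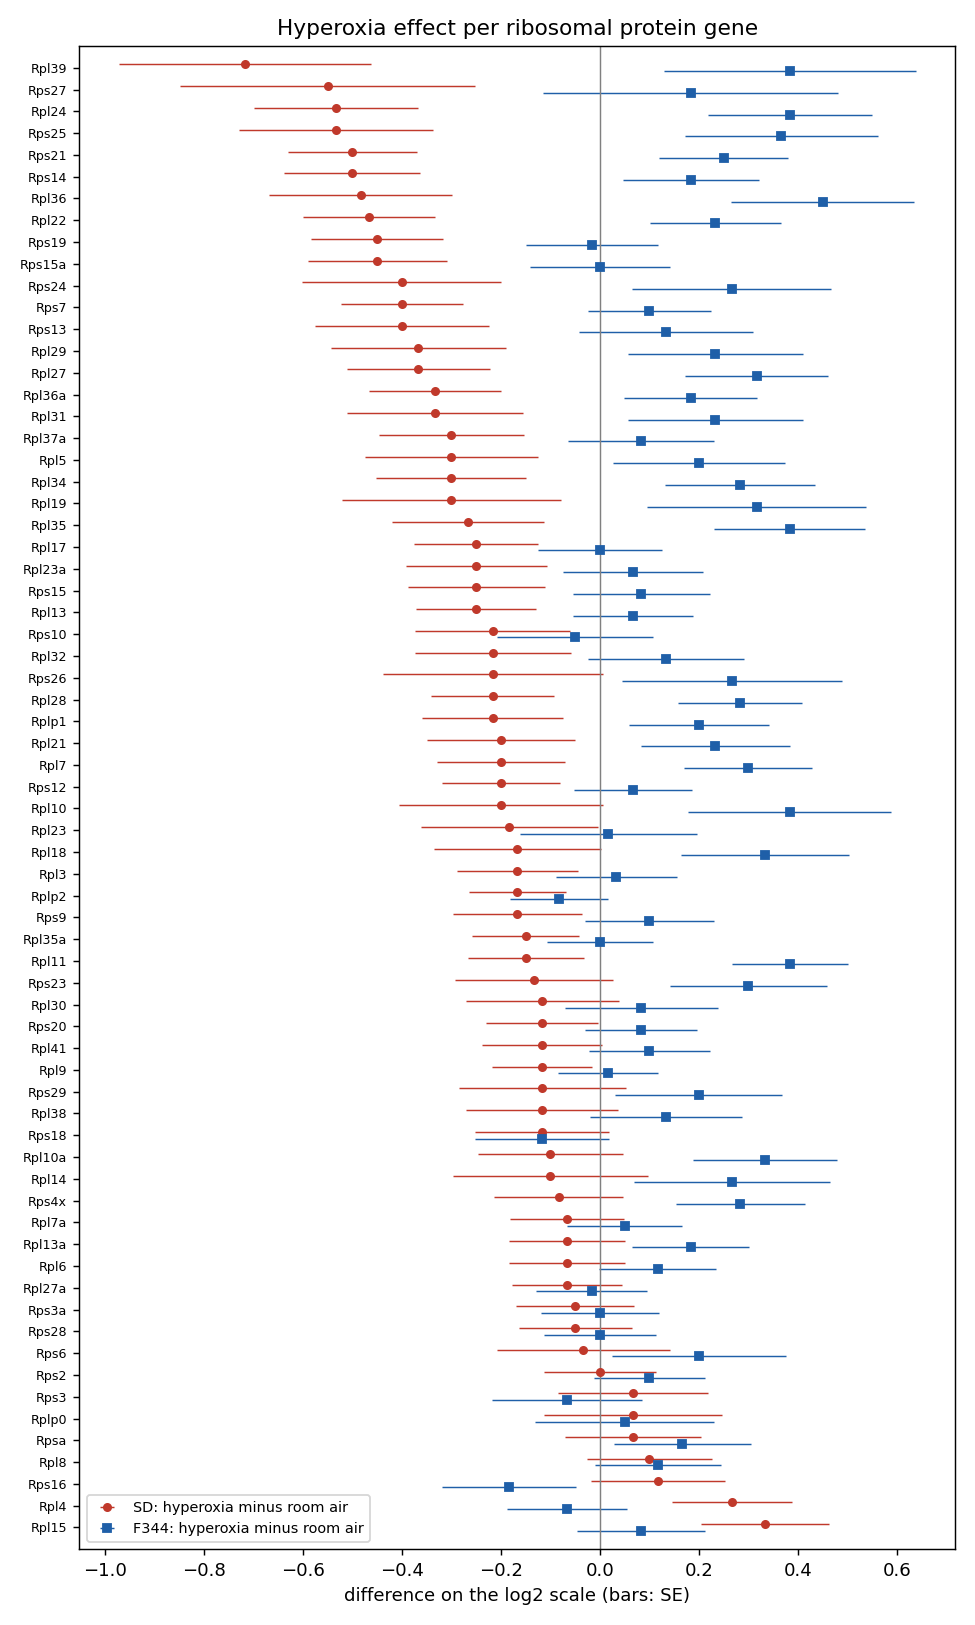
Difference between hyperoxia and room air on the log2 scale (x axis) for each of the 68 genes, with SD as red circles and F344 as blue squares and bars of 1 SE on either side, ordered by the SD difference. SD values run from -0.72 for Rpl39 to 0.33 for Rpl15, and F344 values from -0.18 for Rps16 to 0.45 for Rpl36.

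In F344 retinas, the same exposure came with values that were on balance slightly higher. The median difference was 0.13 on the log2 scale, against 0.00 over all genes, with 55 genes above 0, 8 below and 5 at 0 (all genes 47.1% above and 48.2% below). Again 0 of 68 genes passed an adjusted p of 0.05 in limma, against 0% of all genes higher and 0.00698% lower, and the smallest adjusted p was 0.921. Before adjustment, at p under 0.05, 9 genes were higher and 0 lower, or 13.2% of the family, against 2.73% and 2.19% of all genes. The groups did not overlap for 7 genes that were higher and 0 that were lower, against 6.6% and 6.32% of all genes, so that for the higher genes the share in the family, unlike the unadjusted count, was not far from that of all genes. The 7 were Rpl7, Rpl10a, Rpl11, Rpl28, Rpl35, Rps4x and Rps9.

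Rpl36, a large-subunit protein, had the largest F344 difference, 0.45 (SE 0.185). Its log2 values were 9.3, 9.1 and 9.5 in F344 hyperoxia, against 9.1 and 8.6 in F344 room air, so that the groups met at 9.1 and room-air pool 2 stood lowest. Rpl11, which together with Rpl5 and 5S rRNA can bind the p53 regulator Mdm2, was at 9.4, 9.5 and 9.7 in F344 hyperoxia, against 9.2 and 9.1 in room air. Its difference was 0.38 (SE 0.117) and its groups were apart.

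Rpl10, which joins the large subunit late in its assembly, was at 11.8, 11.9 and 12.4 in F344 hyperoxia, against 11.9 and 11.4 in room air. Its groups overlapped, with the difference of 0.38 (SE 0.205) carried by hyperoxia pool 3 and room-air pool 2. Rpl35 at the tunnel exit (0.38, SE 0.153), Rpl39 (0.38, SE 0.255) and Rpl24 (0.38, SE 0.166) had differences of the same size. The lowest were Rps16 at -0.18 (SE 0.135), Rps18 at -0.12 (SE 0.135) and the stalk protein gene Rplp2 at -0.08 (SE 0.0988).

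The F344 pattern rested on single pools more than the SD pattern did. Pool by pool against the mean of F344 room air, the family's mean was higher by 0.10 in hyperoxia pool 1, by 0.04 in pool 2 and by 0.32 in pool 3. Without hyperoxia pool 3 the median was 0.05 and 1 gene had an unadjusted p under 0.05, and without room-air pool 2 it was 0.05 and 0 genes did. Without hyperoxia pool 2, 17 did. Without both arrays numbered 3 the median was 0.05, with 43 genes above 0 and 15 below, Rpl36 at 0.35, Rpl11 at 0.30 and Rpl10 at 0.20. In SD, hyperoxia pools 1 and 2 were below the SD room-air mean by similar amounts, -0.19 and -0.22.

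**Figure D3:**
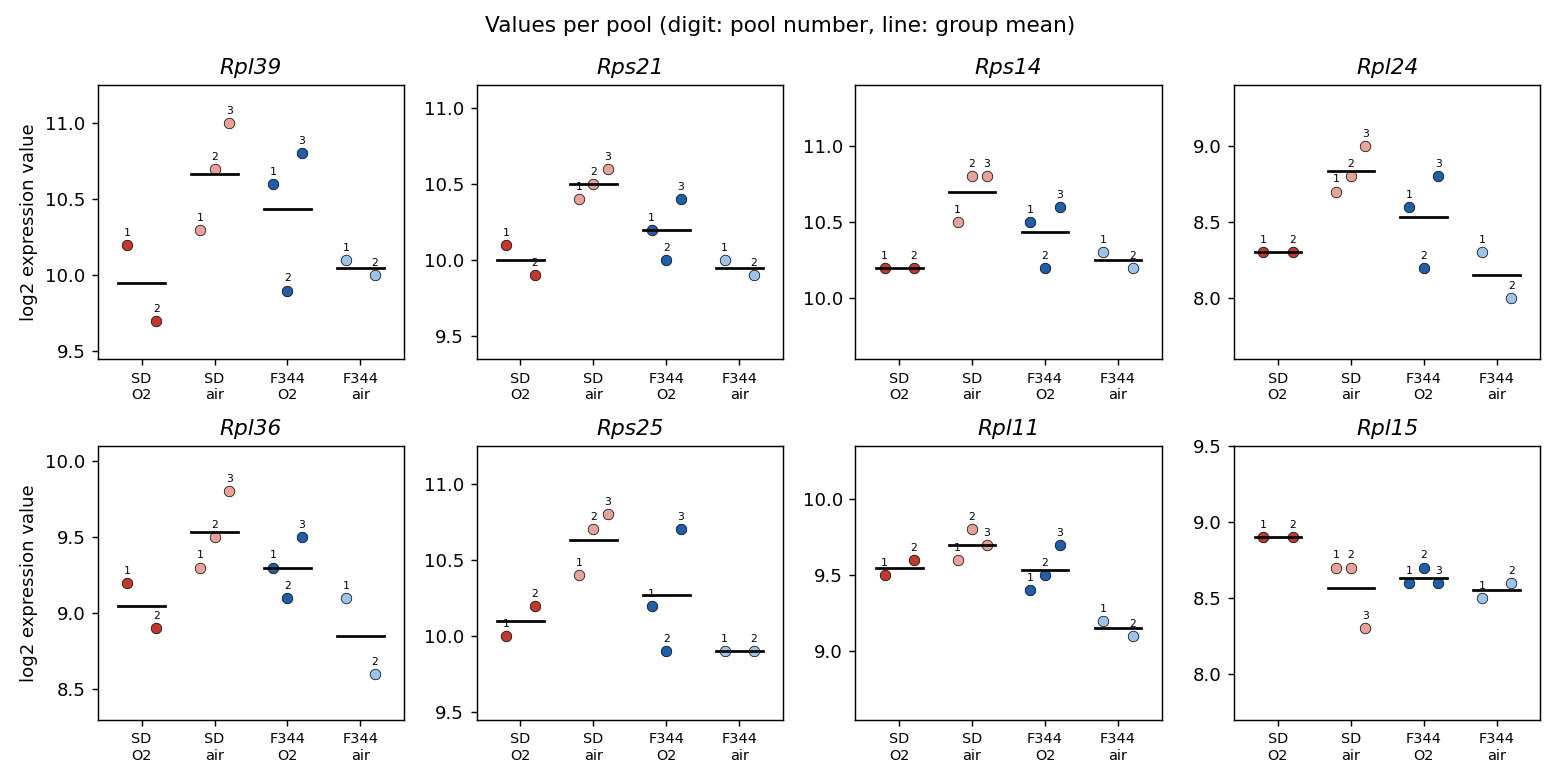
Log2 expression values (y axis, 1.8 units in each panel) of 8 ribosomal protein genes per pool, with the pool number above each point and a line at the group mean, for SD hyperoxia, SD room air, F344 hyperoxia and F344 room air from left to right. SD hyperoxia lies below SD room air without overlap for Rpl39, Rps21, Rps14, Rpl24, Rpl36 and Rps25, and Rpl15 shows the reverse.

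The 2 strains were compared directly by the difference of their exposure effects, SD minus F344. The median over the family was -0.36 on the log2 scale, against 0.02 over all genes, with 62 genes below 0, 5 above and 1 at 0 (all genes 46.2% below and 50.6% above). No gene passed, in the family or among all genes (0% in either direction), and the smallest adjusted p in the family was 0.651 by limma. Before adjustment, at p under 0.05, 20 genes were lower and 0 higher, or 29.4% of the family, against 4.58% and 2.4% of all genes. The most negative differences were those of Rpl39 at -1.10 (SE 0.360), Rpl36 at -0.93 (SE 0.262), Rpl24 at -0.92 (SE 0.235), Rps25 at -0.90 (SE 0.276) and Rps21 at -0.75 (SE 0.185). The most positive were those of Rpl4 at 0.33 (SE 0.173), Rps16 at 0.30 (SE 0.191) and Rpl15 at 0.25 (SE 0.182).

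Without both arrays numbered 3, the median of this difference was -0.20, with 59 genes below 0 and 8 above, and 11 genes were lower at an unadjusted p under 0.05. Rpl39 was then at -0.75, Rpl24 and Rpl36 at -0.70 each and Rpl4 at 0.20. In the full set, 50 of the 68 genes (73.5%) were lower in exposed SD and higher in exposed F344, against 26.1% of all genes. That count was not repeated without those arrays. Without them, 36 of 42 large-subunit and 20 of 26 small-subunit genes were below 0 in SD. In F344, 28 of 42 and 15 of 26 were then above 0, against 37 and 18 in the full set. Across the 68 genes the effects in SD and in F344 correlated at r = -0.46 (Spearman -0.41), against -0.23 (Spearman -0.25) across all genes. Across the 68 without the arrays numbered 3 it was -0.15 (Spearman -0.13), and the value across all genes without them was not computed. The points of these correlations share arrays and are not independent, and no test is given. Genes with a more negative effect in SD thus tended to have a more positive one in F344, but much less so without those arrays.

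Averaged over both strains, hyperoxia left the family near 0. The median was -0.03, against 0.01 over all genes, with 43 genes below 0 and 24 above (all genes 46% below and 50.3% above). Limma called 0 of 68, against 0.0628% of all genes lower and 0% higher. At an unadjusted p under 0.05, 1 gene was higher and 2 were lower. Those are 1.47% and 2.94% of the family, close to the 1.34% and 2.28% of all genes. The 2 lower ones were Rps19, mutated in many families with Diamond-Blackfan anaemia in humans, at -0.23 (SE 0.0945) and Rps15a at -0.225 (SE 0.0995). The higher one was Rpl15 at 0.21 (SE 0.0911), the gene that stood above room air in SD and, at 0.08, by little in F344. Without both arrays numbered 3, Rps19 was at -0.28, Rpl15 at 0.15 and Rps15a unchanged at -0.225.

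Between the strains in room air, values were mostly higher in SD retinas. The median difference, SD minus F344, was 0.30 on the log2 scale, against 0.00 over all genes, with 64 genes above 0, 3 below and 1 at 0 (all genes 46.7% above and 49.6% below). By limma 0 of 68 had an adjusted p under 0.05, against 0.377% of all genes higher and 0.175% lower in SD. The smallest adjusted p, 0.071, was that of Rpl11. At an unadjusted p under 0.05, 31 genes were higher and 0 lower, or 45.6% of the family, against 6.92% and 4.51% of all genes. The groups did not overlap for 34 genes that were higher in SD and 0 that were lower, against 10.8% and 9.93% of all genes.

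Rpl11 was at 9.6, 9.8 and 9.7 in SD room air, against 9.2 and 9.1 in F344 room air, a difference of 0.55 (SE 0.117, 1.46-fold higher). The 3 SD pools were well clear of the F344 pools. Rps25 was at 10.4, 10.7 and 10.8 in SD, against 9.9 in both F344 pools, a difference of 0.73 (SE 0.195, 1.66-fold higher), the largest in the family. Rpl24 differed by 0.68 (SE 0.166), Rpl36 by 0.68 (SE 0.185), Rps27 by 0.65 (SE 0.298) and Rpl39 by 0.62 (SE 0.255). The genes at the other end were Rpl4 (-0.17, SE 0.122), Rps16 (-0.12, SE 0.135) and Rps18 (-0.08, SE 0.135), with Rps3a at 0.00.

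This strain difference used the same room-air pools as both exposure effects, so a high SD or low F344 room-air pool enters all 3 comparisons. Without F344 room-air pool 2 the median was 0.20 and 6 genes had an unadjusted p under 0.05. Without F344 hyperoxia pool 3, which takes no part in the difference but in its error, 2 genes had an adjusted p under 0.05, Rps25 (adjusted p = 0.0392) and Rpl11 (adjusted p = 0.0409). Without both arrays numbered 3, 33 genes were higher and 0 lower at an unadjusted p under 0.05, and Rpl11 was at 0.55, Rps25 at 0.65, Rpl24 at 0.60 and Rpl36 at 0.55.

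In hyperoxia the strains lay close together. The median difference, SD minus F344, was -0.05, against 0.00 over all genes, with 46 genes below 0 and 19 above (all genes 47.3% below and 48.5% above). Of the 68, 0 had an adjusted p under 0.05 by limma, against 0.237% of all genes in each direction. At an unadjusted p under 0.05, 2 were lower in SD and 0 higher, or 2.94% and 0% of the family, against 3.22% and 3.49% of all genes. The 2 are thus no larger a share than among all genes. They were Rpl22 at -0.33 (SE 0.133) and Rpl7 at -0.30 (SE 0.129). Rpl39 had the lowest value, -0.48 (SE 0.255), and Rpl15 the highest, 0.27 (SE 0.129). The groups did not overlap for 5 genes higher and 2 lower in SD, against 8.04% and 7.34% of all genes. The direction of the median depended on 1 array: without F344 hyperoxia pool 3 it was 0.05, with 39 genes above 0 and 18 below.

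**Figure D4:**
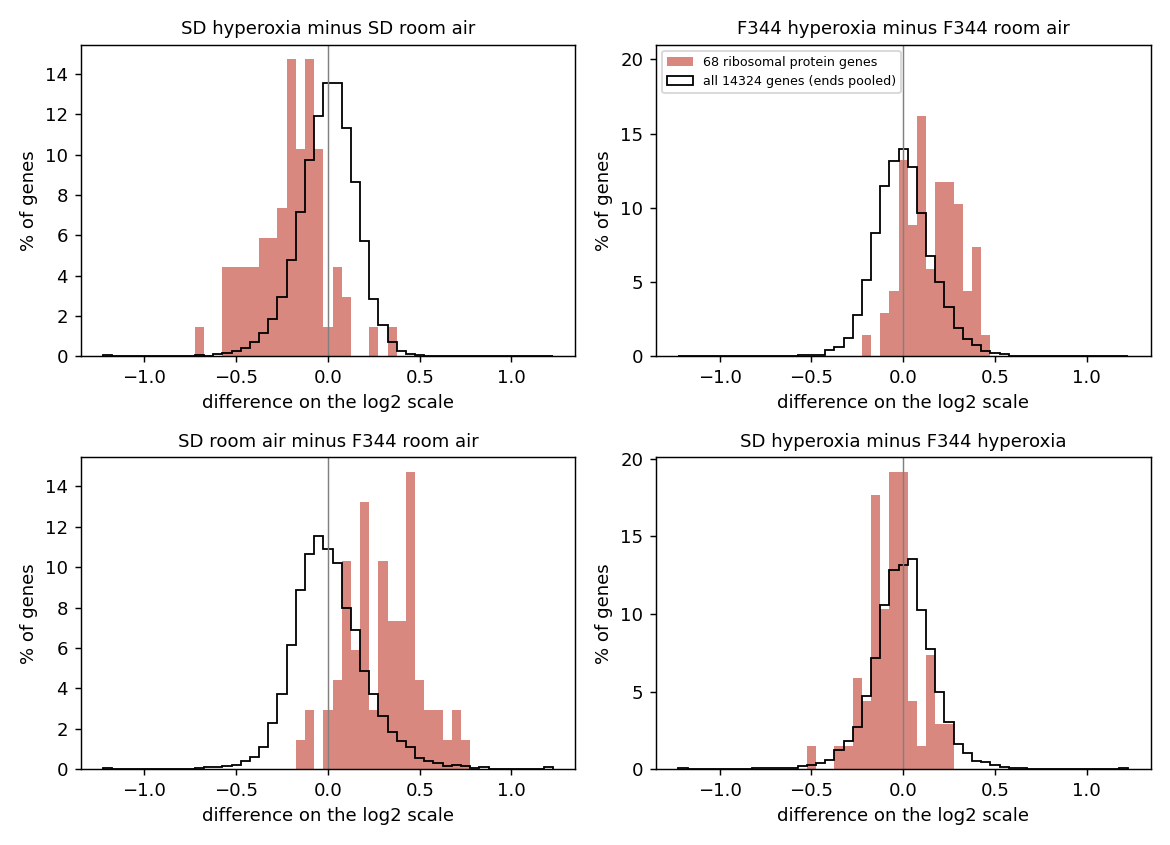
Share of genes (y axis, %) by difference on the log2 scale (x axis, bins of 0.05) for the 68 ribosomal protein genes in red and all 14324 genes as a black outline, whose ends beyond the axis are pooled in the last bins. The family's median lies at -0.20 in SD and 0.13 in F344 for hyperoxia minus room air, and at 0.30 in room air and -0.05 in hyperoxia for SD minus F344, while the outline is centred near 0.

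By place in the ribosome, both subunits had medians of the same sign. The exposure effect had a median of -0.20 over 42 large-subunit genes and -0.18 over 26 small-subunit genes in SD, and of 0.18 and 0.10 in F344. In F344, 8 of 42 large-subunit genes and 1 of 26 small-subunit genes were higher at an unadjusted p under 0.05 by limma, against 2.73% of all genes. Without both arrays numbered 3, 1 of 42 and 0 of 26 were. The medians without those arrays were -0.15 and -0.13 in SD and 0.10 and 0.05 in F344. The strain difference in room air had a median of 0.30 and 0.33. None of the 68 passed in any of these comparisons, and the difference between subunits was not tested.

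The exit tunnel is lined and ringed by proteins of the large subunit, of which 7 of 8 listed were measured. Their median was -0.27 in SD and 0.23 in F344 for hyperoxia minus room air. Rpl39 and Rpl4, both of the tunnel wall, stood at opposite ends, -0.72 and 0.27 in SD. Rpl31 differed by -0.33 in SD and 0.23 in F344, Rpl19 by -0.30 and 0.32, Rpl35 by -0.27 and 0.38, Rpl23a by -0.25 and 0.07, and Rpl17 by -0.25 and 0.00. Of these 7, 6 were thus below 0 in SD and 5 above 0 in F344. Without both arrays numbered 3 the medians were -0.15 and 0.05, with 6 below 0 in SD and 4 above 0 in F344. Rpl31 then stood at -0.15 and 0.10, Rpl19 at -0.15 and 0.05, and Rpl23a at -0.15 and -0.05.

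Rpl5 and Rpl11 form a particle with 5S rRNA before they join the large subunit. Rpl5 was at 11.0 and 10.8 in SD hyperoxia, against 11.1, 11.2 and 11.3 in SD room air, and at 11.0, 10.8 and 11.5 in F344 hyperoxia, against 11.0 and 10.8 in F344 room air. Its groups were apart in SD (-0.30, SE 0.174) and overlapped in F344 (0.20, SE 0.174), where without the arrays numbered 3 the difference was 0.00. Rpl11 had a smaller difference in SD, -0.15 (SE 0.117), and a larger one in F344.

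The stalk, which recruits translation factors, is built on Rplp0 with the acidic proteins of Rplp1 and Rplp2. Rplp0 was at 11.3 in both SD hyperoxia pools, against 11.4, 11.5 and 10.8 in SD room air, so that its difference of 0.07 (SE 0.180) came from room-air pool 3 alone. Without the arrays numbered 3 it was -0.15. Rplp1 differed by -0.22 in SD and 0.20 in F344 (-0.10 and 0.10 without those arrays), and Rplp2 by -0.17 and -0.08. The 3 stalk genes therefore did not share a direction in F344.

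On the small subunit, Rps3 and Rps2 lie where mRNA enters. Rps2 differed by 0.00 in SD and 0.10 in F344, and Rps3, which was at 12.0 and 11.8 in SD hyperoxia, against 12.0, 12.0 and 11.5 in SD room air, by 0.07 and -0.07. Neither moved beyond the spread of its pools. Where mRNA leaves, Rps14 differed by -0.50 and 0.18, Rps26 by -0.22 and 0.27, and Rps28 by -0.05 and 0.00. Rps26 was at 0.00 and 0.05 without both arrays numbered 3. In the beak, a protrusion of the head, Rps10 differed by -0.22 and -0.05 and Rps12 by -0.20 and 0.07. Of the 8 listed paralogs, 1 was measured, Rpl22l1, which can take the place of Rpl22. Its log2 values were 7.6 and 7.4 in SD hyperoxia, against 7.7, 7.9 and 8.7 in SD room air, and 7.6, 7.5 and 8.5 in F344 hyperoxia, against 7.6 and 7.3 in F344 room air. The arrays numbered 3 were the highest of both groups that had one, by 0.93 (SE 0.110) in the term for those arrays. Outside the symbol rule, Rps4y2, named after its values were seen, was higher in SD than in F344 room air by 0.63 (SE 0.118, adjusted p = 0.0335). Its log2 values of 5.5 to 6.3 reached from below to above the array medians. Fau, Rack1, Rpl36al1 and Rpl37l1, also outside the rule, passed in no exposure or strain comparison. Hyperoxia minus room air in SD was -0.20, -0.20, -0.32 and -0.17 for these 4. The strain difference in room air was 0.20, 0.30, 0.27 and 0.37.

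Most members had more than 1 probe set, so each comparison could be read again from probe sets that the rule did not use. The 68 genes had 248 probe sets, 53 genes having several and Rpl21 having 21. In SD, 163 of the 180 unused probe sets were below 0 and 9 above, with a median of -0.22. In F344, 157 were above 0 and 18 below, with a median of 0.13. In room air, 171 were higher in SD and 6 lower, with a median of 0.26. The medians of the 180 were -0.20 in SD, 0.05 in F344 and 0.25 between strains in room air when both arrays numbered 3 were left out. None of the 248 had an adjusted p under 0.05 in any of the 6 comparisons. These readings come from the same RNA and may share probes or match copies of the gene elsewhere in the genome, which rat ribosomal protein genes have in number, so they are no replicates.

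Within a gene, the spread over probe sets varied from gene to gene. The 7 of Rpl39 ran from -0.82 to -0.72 in SD and from 0.30 to 0.45 in F344. The 10 of Rpl36 ran from -0.60 to -0.42 and from 0.20 to 0.47. All 21 of Rpl21 were below 0 in SD, from -0.38 to -0.20, and above 0 in F344, from 0.03 to 0.25. The 7 of Rpl31 ran more widely, from -0.48 to 0.13 in SD. Probe sets of both signs were found in 8 of 53 genes in SD, among them Rpl4 with -0.07 and 0.27, and in 9 in F344.

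**Figure D5:**
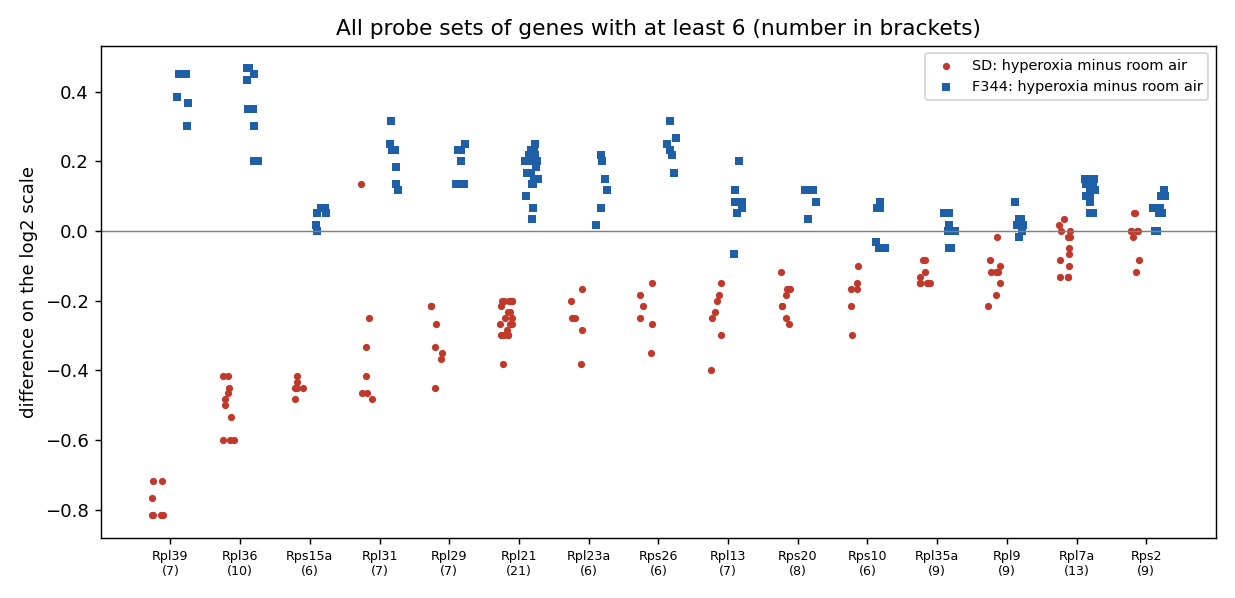
Difference between hyperoxia and room air on the log2 scale (y axis) for every probe set of the 15 genes that had at least 6, with SD as red circles and F344 as blue squares and the number of probe sets in brackets. The probe sets of Rpl39, Rpl36 and Rpl21 are all below 0 in SD and all above 0 in F344.

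Other genes of protein synthesis were read the same way. Of 78 listed mitochondrial ribosomal proteins, whose ribosomes translate the mitochondrial genome, 67 were measured. Their median was -0.18 in SD and 0.18 in F344 for hyperoxia minus room air, with 59 of 67 below 0 in SD and 63 above 0 in F344. Neither direction had a gene past the adjusted threshold. In room air, SD minus F344, their median was 0.25 and 1 rose, Mrpl4 (0.95, SE 0.157, adjusted p = 0.0161), and 0 fell. Mrpl54 had the most negative exposure effect in SD, -0.67 (SE 0.206), and Mrpl48 the most positive in F344, 0.55 (SE 0.188). In the arrays numbered 3, 21 of the 67 rose and 0 fell, against 7.39% and 8.73% of all genes. Without both of those arrays the medians were -0.10 in SD, 0.05 in F344 and 0.20 in room air. Mrpl54 then stood at -0.55 in SD and Mrpl48 at 0.35 in F344. In room air 0 genes passed without those arrays, while the difference of Mrpl4 stood at 1.0. The medians of cytosolic and mitochondrial ribosomal protein genes thus had the same sign in all 3 comparisons, with and without those arrays.

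Translation factors and assembly factors lay closer to 0. Of 51 listed translation factors, 45 were measured, with medians of -0.02 in SD, 0.07 in F344 and 0.07 between strains in room air. Eif1ax, an initiation factor that scans for the start codon, had the largest exposure effects, -0.42 (SE 0.234) in SD and 0.45 (SE 0.234) in F344. It was also higher in the arrays numbered 3 by 0.63 (adjusted p = 0.00594), and without both it stood at -0.25 and 0.20. Of 63 listed ribosome assembly genes, 52 were measured, with medians of -0.02, 0.08 and 0.00. Npm1, the nucleolar chaperone nucleophosmin, and Sbds, which releases a late assembly factor from the large subunit, both differed by -0.40 in SD (SE 0.217 and 0.191). Npm1 was at -0.25 and Sbds at -0.30 without both arrays numbered 3. Utp14a, of the small-subunit processome, differed by 0.43 (SE 0.156) in F344. By limma 0 genes of either list passed in the exposure or strain comparisons. Without both arrays numbered 3 the medians in SD, in F344 and in room air were -0.05, 0.05 and 0.10 for translation factors. For assembly genes they were 0.00, 0.05 and 0.00.

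TOR signalling genes, which act upstream of TOP mRNA translation, had 24 of 30 measured. Their medians were -0.09 in SD, 0.05 in F344 and 0.07 between strains in room air, with 0 past the adjusted threshold in any. Without both arrays numbered 3 the medians were -0.05, 0.05 and 0.00. Lamtor2 and Eif4ebp1 then stood at -0.80 and -0.40 in SD, and Ddit4 at 0.65 in F344. Lamtor2, a subunit of the lysosomal anchor of TOR, differed by -0.82 (SE 0.232) in SD. Eif4ebp1, the initiation repressor that TOR phosphorylates, differed by -0.45 (SE 0.150) there. Ddit4, a stress-induced TOR inhibitor, was at 8.8, 9.5 and 8.9 in F344 hyperoxia, against 8.4 and 8.6 in F344 room air, a difference of 0.57 (SE 0.189), with the groups apart.

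Markers of cell types were read beside these results, as the mean log2 value of each list. The 19 measured photoreceptor genes of 23 listed averaged 8.81 to 8.84 in SD hyperoxia, against 8.64 to 9.10 in SD room air, and 8.72 to 9.03 in F344 hyperoxia, against 8.49 to 8.53 in F344 room air. All other pools, those of SD hyperoxia included, were thus above both F344 room-air pools. The SD hyperoxia pools lay within the range of the SD room-air pools. The 21 measured of 25 listed cell cycle and progenitor genes averaged 9.44 to 9.45 in SD hyperoxia, against 9.04 to 9.47 in SD room air, and 9.10 to 9.43 in F344 hyperoxia, against 9.30 to 9.41 in F344 room air. Their lowest values were those of the arrays numbered 3. By the term for those arrays 12 of 21 fell, and 7 of 19 photoreceptor genes rose and 1 fell. Of all genes, 7.39% rose and 8.73% fell by that term. The 11 measured of 19 listed lens genes averaged 5.12 to 5.22, 4.98 to 6.13, 5.01 to 5.86 and 5.33 to 5.44 in the same 4 groups, with 3 of 11 above the array median. The 7 fibroblast and sclera genes averaged 5.30 to 5.83, 5.37 to 6.69, 5.63 to 5.79 and 5.60 to 5.61, with 3 of 7 above the array median and the highest mean in SD room-air pool 3. The 8 measured of 11 pigment epithelium genes averaged 6.22 to 6.58 in SD hyperoxia, against 6.04 to 6.54 in SD room air, and 6.30 to 6.64 in F344 hyperoxia, against 6.10 to 6.12 in F344 room air, with 3 of 8 above the array median. Their F344 groups did not overlap, and 3 of 8 rose and 1 fell in the arrays numbered 3, against 7.39% and 8.73% of all genes. The 9 measured of 12 endothelial genes averaged 4.94 to 5.08 in SD hyperoxia, against 5.22 to 5.63 in SD room air, and 4.98 to 5.13 in F344 hyperoxia, against 5.18 to 5.44 in F344 room air, with 1 of 9 above the array median. The exposed pools were below the room-air pools in both strains, without overlap. The part of these cell types in the ribosomal protein values was not tested.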

How the data were processed

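Retinal RNA of 10 pools in 4 groups was analysed. The authors deposited log2 expression values, 1 per probe set, rounded to 1 decimal. Per the submitters' processing notes, RMA and Partek 6.4 were involved, though their roles are unstated. Background correction and scaling are otherwise not given in the sources used here. The rounding limits small differences, and precision is limited by how many arrays there are. The platform annotation gave 1 gene symbol to 15097 of 27342 probe sets and several to 323, and 11922 carried no symbol. The fit used every probe set, but names were given only where there was a single symbol. Of the 68 member genes, 67 were in a current GRCr8 gene table by identifier, with the same symbol.

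In R 4.3.3, limma 3.58.1 fitted a mean per group to all 10 arrays (6 residual degrees of freedom), with eBayes, two-sided tests, p-values adjusted by Benjamini-Hochberg across every probe set and a threshold of 0.05. SE are from this fit. The procedure was tested on simulated data with independent noise and changes larger than the exposure effect of any member in either strain. Recovery of differences as small as those of the members was not tested. Groups came from sample titles and strain labels. No 2 arrays of a group held identical values. Pools of different rats were used as biological replicates per the labels.

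Members and lists were chosen with earlier results of these data known. Eligible for naming were members past the threshold, the 5 highest and 5 lowest differences per comparison, members of the place lists and the 3 widest and 3 narrowest ranges. For other lists, those past the threshold were eligible, or otherwise the 2 with the largest difference. The text gives only part of the eligible values. Further genes named as examples were chosen after their values were seen. Alternatives are given in the closing section.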

Additional observations from a re-analysis of the deposited data

Results flagged for a closer look

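The mean over the 68 ribosomal protein genes drew attention because it went opposite ways in the strains. The exposure effect, hyperoxia minus room air, was -0.204 on the log2 scale in SD and 0.153 in F344, a difference of -0.357. Against the mean of their own room-air group, SD hyperoxia pools 1 and 2 were at -0.185 and -0.224, and F344 hyperoxia pools 1, 2 and 3 at 0.0978, 0.036 and 0.324. F344 hyperoxia pool 2 was closer to its room-air mean than the SD of 0.114 within groups, and it lay between both F344 room-air pools. The difference was not tested, since the members were chosen with results of these data known. Without both arrays numbered 3 the median of the 68 differences was -0.20.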

How the results depend on the processing

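Over 21 alternatives, 13 of 90 member values eligible for naming changed sign at least once, 48 times in all and 7 times without both arrays numbered 3. Each of them was smaller than its SE to begin with, the largest at 0.13 in size, and 0 of the 63 values of at least 1 SE changed sign. Part of the alternatives could not change a sign, as they return the same difference between groups. These are fits with another error estimate, with fewer probe sets, or without arrays of groups that are not compared. Members past the adjusted threshold numbered 0 throughout, except between strains in room air, where there was 1 with array weights and 1 with the term for arrays numbered 3 (Rpl11 each time), and 0 to 2 with single arrays left out. The median of the difference of exposure effects was -0.20 with the replicate block, with the term for arrays numbered 3 and without both of those arrays, against -0.36, because the SD room-air and F344 hyperoxia arrays numbered 3 enter it with the same sign. With single arrays left out it ran from -0.43 to -0.26. The median in SD ran from -0.25 to -0.15, in F344 from 0.05 to 0.23, in room air from 0.20 to 0.40 and in hyperoxia from -0.10 to 0.05. Keeping only listed ribosomal proteins left the same 68 members.

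Counts at an unadjusted p under 0.05 moved more. In F344 the 9 genes became 1 with only the groups compared, 4 with the replicate block, 3 with the term for arrays numbered 3, 1 without both of those arrays and 0 to 17 with single arrays left out. In SD the 15 genes became 9 to 22 with single arrays left out, and the 9 came without either hyperoxia pool or without room-air pool 3. For the difference of effects the 20 genes became 11 without both arrays numbered 3 and 11 to 29 with single arrays left out. For the average the 3 genes became 5 and 0 to 6 in the same settings. Between strains in room air the 31 became 6 to 36 with single arrays left out, and in hyperoxia the 2 became 5 with array weights, 1 with only the groups compared, with the term for arrays numbered 3 and without both of those arrays, and 0 to 8 with single arrays left out. In hyperoxia, genes above 0 numbered 37 with the replicate block and 37 with the term for arrays numbered 3, against 19.

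Replicate numbers were not taken to pair pools. Of 13 same-numbered pairs of arrays, 4 had deviations from their group means that correlated above 0.1, and the range was -0.07 to 0.64. The block changed no call at the adjusted threshold.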
